A study of Populus tremula x Populus alba with 3 samples.

Results

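The KD2 poplar line was compared with wild type (WT) for methylation of gene promoters. The members are every row of the authors' 3 promoter tables, 1 table for each cytosine context (CG, CHG and CHH, with H standing for any base but G), taken with the KD2 value alone. They comprise 100 promoter entries of 83 genes, out of 577 genes listed for a promoter or a transcribed region in the whole series. KD2 is an RNA interference line directed against PtaDML10, as is KD5, the other knockdown line of the series, and WT is the untransformed comparison. All plants belong to the hybrid Populus tremula x Populus alba, INRA clone 717-1B4, so that the lines share 1 genetic background and differ in the RNAi construct. Which promoter drives the construct, and how many independent transformants stand behind a line, is not given in the sources used here. Plants of each genotype spent 4 weeks in long days (16 h light, 21 °C), 12 weeks in short days (8 h light, 19 °C) and a final 4 weeks in short days in the cold, at 4 °C. Of each genotype, 15 plants gave 15 apical buds that had not begun to open for whole genome bisulfite sequencing. That method converts unmethylated cytosines so that they are read as thymines, and leaves 5-methylcytosine unchanged.

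DML proteins are DNA glycosylases of the DEMETER-like family, which cut 5-methylcytosine out of DNA and open the way to its replacement by unmethylated cytosine. In Arabidopsis, members of the family act in all sequence contexts and often near the ends of genes and at transposon fragments. CG methylation is copied at each replication by the maintenance enzyme MET1, CHG methylation is kept by a loop between the chromomethylase CMT3 and histone methylation, and CHH methylation has to be laid down anew, by the RNA-directed pathway and by CMT2. Removal of methylation by a demethylase and these copying routes together set the level at a promoter.

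A gain is given here as KD2 minus WT in percentage points of methylation. With 1 library of KD2 and 1 of WT, no gain has a replicate check, no SD can be given and no p-value was computed. The tables list only genes past the authors' thresholds for methylation in both knockdown lines and for expression, so every member is a gain by construction, and promoters below the thresholds are not analysed here. Depth and coverage per promoter are unknown. The level of PtaDML10 in KD2 and the bud identity of the tissue were not analysed here, since the tables hold no values per library. Expression values are the authors' logFC, with 1 value per gene for both lines together, and logCPM, the mean level. Neither the log base nor the direction of logFC is stated, so its sign is reported without calling a gene induced or repressed, and it is not a KD2 value alone.

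Most promoter gains in KD2 were modest, and a few were several times larger. Over all 100 entries the gain ran from 15 to 92 points with a median of 19.2 points, and the middle of the distribution lay between 16.8 and 23.6 points (lower and upper quartile). Gains between 15 and 20 points made up 56 of the 100 entries, gains between 20 and 25 points 20, gains between 25 and 30 points 11 and gains between 30 and 40 points 10. The remaining 3 entries were above 40 points, and each belongs to a different context. In CG the gains ran from 15 to 92 points over 49 promoters, in CHG from 15.1 to 45.7 points over 30 promoters and in CHH from 15.2 to 80 points over 21 promoters. The medians were 19.4 (CG), 18.9 (CHG) and 20 points (CHH), and the bulk of the values overlapped, with upper quartiles of 25.8, 23.1 and 23.2 points. A gain of at least 25 points was taken as large. It was reached by 13 of 49 CG promoters (26.5%, exact Clopper-Pearson 95% interval 14.9 to 41.1%), by 7 of 30 CHG promoters (23.3%, 9.93 to 42.3%) and by 4 of 21 CHH promoters (19%, 5.45 to 41.9%). Over all contexts 24% of the entries were large, 24 entries of 24 different genes. The intervals cover counting error only, since promoters of 1 library pair are not replicates. The CG gains nearest to 25 points on either side were 23.5 and 25.8 points. In CHG they were 23.8 and 25.1 points, the latter just past the limit, and in CHH 23.3 and 28.9 points. The counts depend on the size chosen, and at 20 points they were 21 in CG, 12 in CHG and 11 in CHH.

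**Figure D1:**
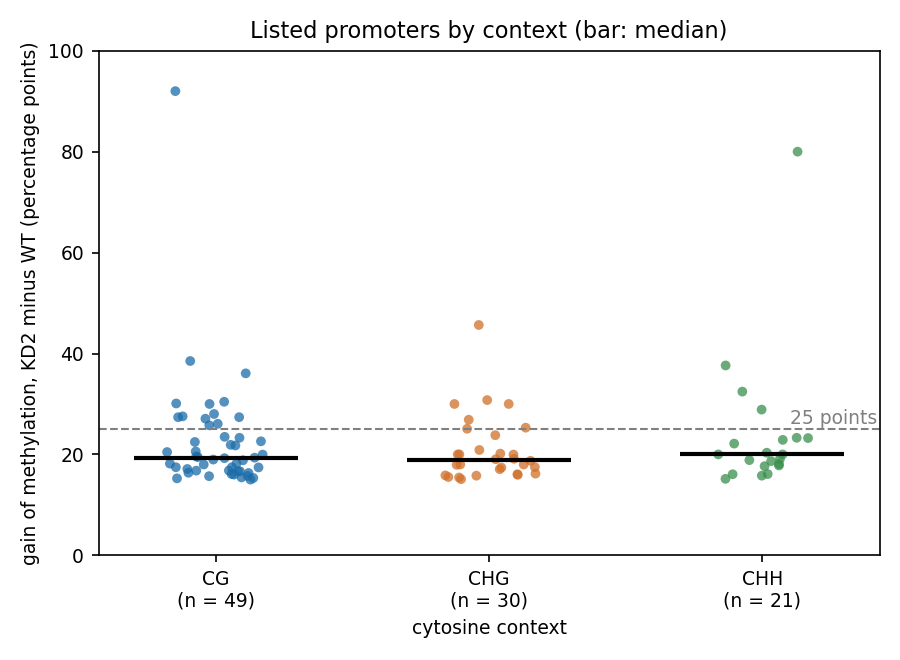
Gain of methylation in KD2 over WT, in percentage points, for each listed promoter (points, spread sideways at random) in the CG, CHG and CHH tables, with the median as a black bar and a dashed line at 25 points. Medians lie at 19.4, 18.9 and 20 points, and 1 promoter in each context stands above 40 points.

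The smallest gains sit at the lower limit of the tables. In the authors' deposited CG table the smallest KD2 gain, 15.0 points, was that of an S-adenosyl-L-methionine-dependent methyltransferase family gene (Potri.005G236600), followed by a heavy metal transport and detoxification family gene (Potri.010G024700, 15.3 points), purple acid phosphatase 29 (Potri.014G109100, 15.3 points) and the mitochondrial import chaperone TIM13 (Potri.011G149800, 15.4 points). In the authors' deposited CHG table the lowest were the tonoplast intrinsic protein gene TIP1;3 (Potri.009G027200, 15.1 points), a peptidase M28 family gene (Potri.006G153300, 15.4 points), Potri.001G371800 (15.5 points) and a DUF155 gene (Potri.008G092400, 15.8 points). In the authors' deposited CHH table they were PROTODERMAL FACTOR 1 (Potri.005G200900, 15.2 points), Potri.010G024700 (15.8 points), an EF-hand calcium-binding gene (Potri.001G231100, 16.1 points) and CSLD3 (Potri.001G136200, 16.1 points). Gains under 16 points were listed for 6 CG, 6 CHG and 2 CHH promoters.

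Among CG promoters the largest KD2 gain was at a gene with an Arabidopsis counterpart but no description. For Potri.001G149800 (chromosome 1, 12336746 to 12338745) the authors' deposited table gave gains of 92 (KD2) and 100 points (KD5), and a logCPM of 5.52. A difference of 92 points means that KD2 was methylated at 92% or more and WT at 8% or less in whatever part of the promoter was measured. If the WT level was the same number in both comparisons, the gain of 100 points in KD5 puts WT at 0% and therefore KD2 at 92%. The next CG gain, far below it, was at the gene of a 5 kD photosystem II protein (Potri.009G052500, chromosome 9, 5678912 to 5680911), a small subunit of the oxygen-evolving photosystem. In the authors' deposited table its gain was 38.5 points in KD2 beside 22.6 points in KD5 and its logFC -1.52. A D-mannose binding lectin gene whose product has an Apple-like domain (Potri.001G391200, chromosome 1, 40950199 to 40952198) had 36.1 points in KD2 beside 45.4 points in KD5 in the authors' deposited table, and its logFC was -1.86.

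The other large CG gains in KD2 lay close together, from 25.8 to 30.4 points. The authors' deposited table gave 30.4 points for a ribosomal protein L14p/L23e gene (Potri.010G066400), a component of the large ribosomal subunit and, at a logCPM of 10.01, the most strongly expressed of the 83 genes. PROTODERMAL FACTOR 1 (PDF1, Potri.005G200900), whose Arabidopsis counterpart is expressed in the outermost cell layer of the shoot meristem, had 30.1 points in KD2 beside 36.2 points in KD5 in the authors' deposited table. A Rab5-interacting family gene (Potri.008G102200) had 30 points and a reticulon gene (Potri.008G004200), of a family that bends endoplasmic reticulum membranes, 28.0 points in the authors' deposited table. A UDP-glucosyl transferase 85A2 gene (Potri.008G062400) had 27.5 points and an RNA-binding RRM gene (Potri.003G130300) 27.4 points in the authors' deposited table. Both of these windows lie on chromosome 1 and not on the chromosome of their identifier. The CESA7 gene (Potri.006G181900, chromosome 6, 19615723 to 19617722), a cellulose synthase of the secondary wall, had 27.4 points in KD2 beside 18.9 points in KD5 in the authors' deposited table, and its logFC was -1.32. Potri.001G053700 (27.1 points), a pentatricopeptide repeat gene (Potri.017G091600, 26.1 points) and Potri.001G398700 (25.8 points) completed the 13 in the authors' deposited table. Pentatricopeptide repeat proteins bind RNA in mitochondria and plastids.

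Among CHG promoters the largest KD2 gain, 45.7 points, was listed in the authors' deposited table for Potri.010G062600, against 45.2 points in KD5. The window listed there is 613 bases long and lies on chromosome 1 (25057000 to 25057612), whereas the identifier places the gene on chromosome 10, so the window may not be this gene's promoter. DOT1 (Potri.001G141700, chromosome 1, 11418080 to 11419674), a glycine-rich protein gene named in Arabidopsis for its part in leaf vein patterning, had 30.8 points in KD2 beside 29.2 points in KD5 in the authors' deposited table. Its window is 1595 bases long. A RING/FYVE/PHD zinc finger gene (Potri.005G173200) and a SERF family gene (Potri.014G018100) both had 30 points in KD2 in the authors' deposited table, against 19.5 and 15.1 points in KD5. Potri.006G259200 had 26.9 points, prohibitin 3 (PHB3, Potri.001G335700), a scaffold protein of the inner mitochondrial membrane, 25.3 points and Potri.015G125600 25.1 points in KD2 in the authors' deposited table. The next promoters in the authors' deposited CHG table fell short of 25 points, with 23.8 points for a Got1/Sft2-like vesicle transport gene (Potri.015G017300), 20.9 points for Potri.002G261600 and 20.2 points for an HRF1 family membrane protein gene (Potri.007G129900). Potri.008G145000 and a ubiquitin system Cue protein gene (Potri.018G127200) both had 20 points in the authors' deposited table. The other 18 CHG promoters had gains from 15.1 to 19.98 points.

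Among CHH promoters the largest KD2 gain was at calnexin 1 (CNX1, Potri.012G111100, chromosome 12, 13294953 to 13296952), a lectin chaperone of the endoplasmic reticulum. The authors' deposited table gave 80 points in KD2 beside 15.4 points in KD5, the widest separation of the lines in any entry, at 64.6 points. A gain of 80 points puts the CHH level at 80% or more in KD2 and at 20% or less in WT. A V-ATPase proteolipid gene, VHA-C2 (Potri.005G235300, chromosome 5, 24280286 to 24282285), part of the proton-conducting ring of the vacuolar pump, had 37.6 points in KD2 beside 16.2 points in KD5 in the authors' deposited table. The aquaporin gene TIP1;3 (Potri.009G027200, chromosome 9, 3823997 to 3825996), a water channel of the vacuolar membrane, had 32.4 points in KD2 beside 39.9 points in KD5 in the authors' deposited table. A gene annotated as a transmembrane receptor (Potri.003G068500) had 28.9 points, from a window of 821 bases on chromosome 1, in the authors' deposited table. Below 25 points the authors' deposited CHH table gave 23.3 points for an ARM repeat gene (Potri.006G240400), 23.2 points for Potri.007G129900, 22.9 points for another gene of heavy metal detoxification (Potri.004G073000) and 22.1 points for the chloroplast import receptor TOC64-III (Potri.015G038600). A RING/U-box gene (Potri.002G224200) had 20.3 points, while VPS60.1 (Potri.008G018300), of the SNF7 family that sorts membrane proteins, and Potri.010G121300 both had 20 points, and Potri.012G015800 19.1 points, in the authors' deposited table. The other 9 CHH promoters had gains from 15.2 to 18.9 points.

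The KD2 and KD5 gains of the same promoter were often unlike. Both were measured against the 1 WT library, and each line is 1 library, so the values are set side by side without a test. Of the 24 large KD2 gains, 12 were also at least 25 points in KD5, and in 14 the KD2 gain was above the KD5 gain. The median KD5 gain over all 100 entries was 23.9 points, and over the 49 CG promoters 25.6 points. KD5 gains of at least 25 points were thus common among all listed promoters, and the 12 cannot be read as agreement between the lines. As these 24 entries were chosen for a high KD2 gain, the 14 cannot be read as a difference between the lines. Over all 100 entries the KD2 gain was above the KD5 gain in 31, below it in 67 and equal to it in 2, and the median of KD2 minus KD5 was -4.74 points. In 38 entries the lines were within 5 points of each other. KD2 was ahead by 10 points or more in 6 entries, 2 in each context. These 6, named for that difference after their values were seen, are Potri.009G052500 and Potri.008G102200 in CG, Potri.014G018100 and Potri.005G173200 in CHG, and CNX1 and VHA-C2 in CHH. KD5 was ahead by that much in 25 entries.

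**Figure D2:**
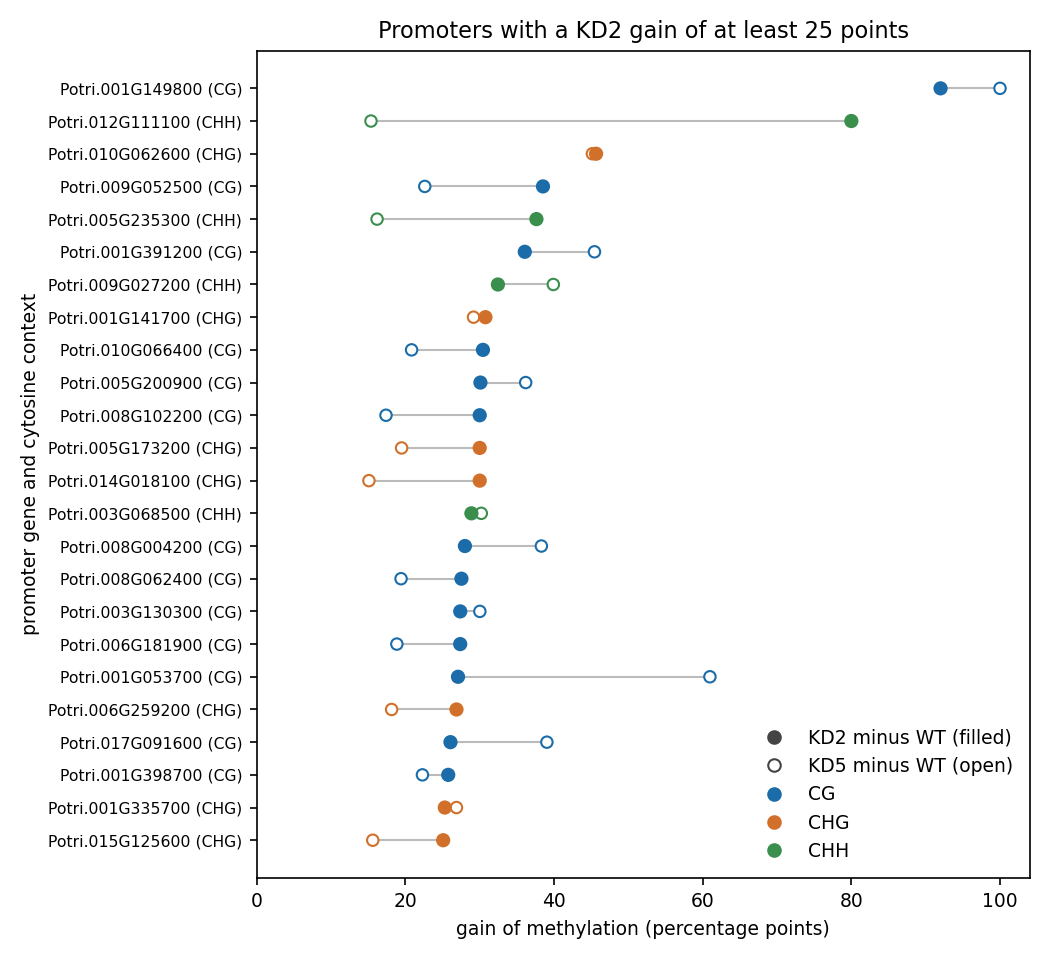
Gain over WT in percentage points for the 24 promoter entries with a KD2 gain of at least 25 points, with KD2 filled and KD5 open, coloured by context and joined by a grey line. KD2 lies to the right in 14 entries, by 64.6 points at Potri.012G111100 (CNX1), and KD5 lies to the right in the other entries, as at Potri.001G053700 (27.1 points in KD2 beside 61.0 points in KD5).

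Promoters of 16 of the 83 genes were listed in more than 1 context, 15 in 2 contexts and 1 in 3. A gain in KD2 that missed the authors' thresholds in a further context would not be listed. The other 67 genes were listed in 1 context. The gene in 3 contexts was CSLD3, a cellulose synthase-like gene (Potri.001G136200, chromosome 1, 10928606 to 10930605), whose Arabidopsis counterpart is needed for tip growth of root hairs. Its KD2 gains were 22.5 (CG), 18.7 (CHG) and 16.1 points (CHH), against 28.7, 29.5 and 28.1 points for KD5, per the authors' deposited tables. The KD2 gain of CSLD3 was below its KD5 gain in each context. Across the 16 genes the gap between the highest and lowest context in KD2 had a median of 3.65 points and ran from 0.134 points at Potri.002G224200 to 27.0 points at Potri.010G062600. No context was consistently ahead. Of 8 genes listed in both CG and CHG, 5 had the higher KD2 gain in CG and 3 in CHG. Of 5 genes listed in both CG and CHH, 3 had it in CG, and of 5 listed in both CHG and CHH, 2 had it in CHG.

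In several of these genes a single context carried the larger gain. PDF1 gained 30.1 points in CG and 15.2 points in CHH, while TIP1;3 gained 15.1 points in CHG and 32.4 points in CHH, in KD2 in the authors' deposited tables. The Rab5-interacting gene Potri.008G102200 gained 30 points in CG and 19.98 points in CHG in the authors' deposited tables, and Potri.010G062600 45.7 points in CHG and 18.7 points in CHH. Potri.015G125600 went the other way from Potri.008G102200, with 16.1 points in CG and 25.1 points in CHG in the authors' deposited tables. TOC64-III, with 16.2 points in CHG and 22.1 points in CHH, and the HRF1 family gene Potri.007G129900, with 20.2 and 23.2 points in these contexts, had the higher gain in CHH in the authors' deposited tables. Potri.002G261600 had 16.7 points in CG and 20.9 points in CHG in the authors' deposited tables.

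The remaining 7 genes had nearly level gains in both of their contexts. In the authors' deposited tables these were Potri.005G221800 (19.96 points in CG, 17.5 points in CHG), the DUF155 gene Potri.008G092400 (18.2 and 15.8 points), BZIP61, a bZIP transcription factor gene (Potri.001G374200, 19.3 and 17.4 points) and the Cue protein gene Potri.018G127200 (19.6 and 20 points). In CG and CHH the authors' deposited tables gave the RING/U-box gene Potri.002G224200 (20.5 and 20.3 points), Potri.012G015800 (18.8 and 19.1 points) and Potri.010G024700 (15.3 and 15.8 points). Entries of genes in 2 or 3 contexts had a median gain of 19.3 points, beside 19.1 points for genes in 1 context, and 5 of 33 (15.2%) against 19 of 67 (28.4%) were large.

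**Figure D3:**
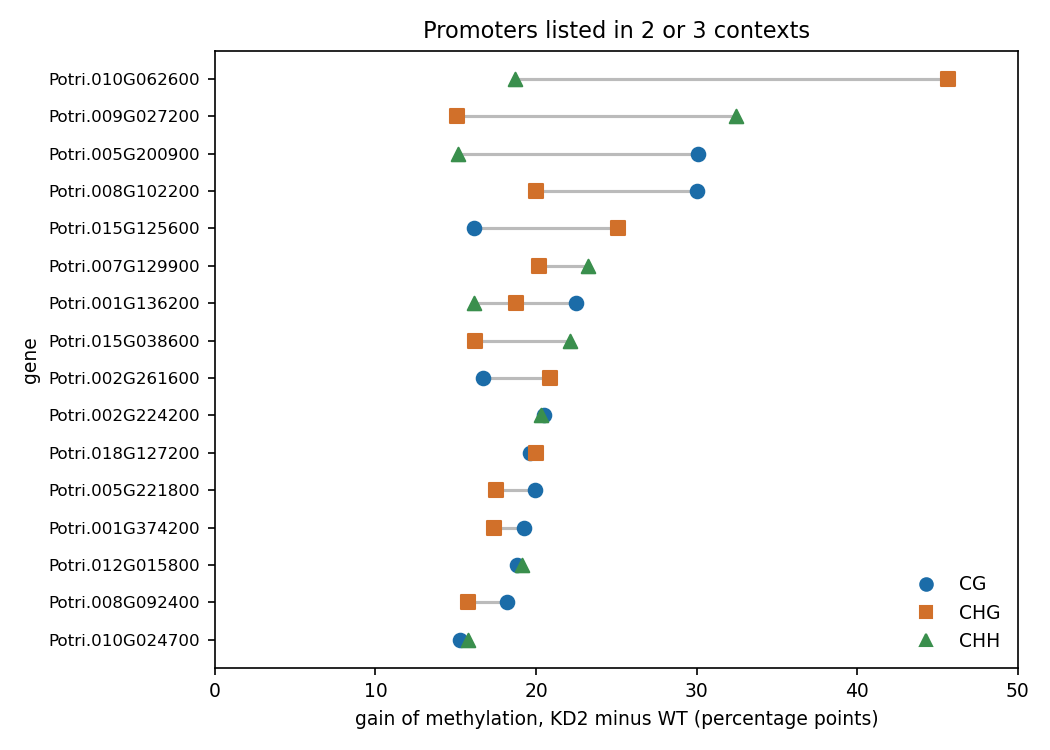
Gain in KD2 over WT, in percentage points, for the 16 genes whose promoter is listed in 2 or 3 contexts (blue circle CG, orange square CHG, green triangle CHH, joined by a grey line). Potri.010G062600 spans 27.0 points and Potri.002G224200 0.134 points.

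By function, the promoters were sorted into word lists of at most 10 entries, so no list could hold most of the 24 large gains. Of 83 genes, 79 had an Arabidopsis match, 66 carried a description and 42 fell into at least 1 of 13 word lists. For the lists below the share over all entries is 24% large and the median gain 19.2 points, and a list with few members can be far from these values by its size alone. The RNA processing list held 10 entries with a median of 17.1 points, of which 2 were large. They are the RRM gene Potri.003G130300 and the pentatricopeptide repeat gene Potri.017G091600, given above. Next came Potri.001G435700 (20.6 points) and the splicing factor SCL33 (Potri.006G197000, 19.5 points) in the authors' deposited table. The former joined by its annotation as an endoribonuclease L-PSP gene and is not known here to process RNA.

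The protein turnover and folding list held 8 entries of 6 genes with a median of 19.8 points, and 1 was large, CNX1. Its other members were genes of the ubiquitin system and a peptidase, with gains from 15.4 to 20.5 points, UBQ6 (Potri.012G114000) at 16.8 points and a Ring/U-Box gene (Potri.004G217700) at 17.1 points in the authors' deposited table. All 6 genes had a negative logFC, as had all 4 genes of the translation list, against 55 of the 83 genes. In the translation list the median gain was 17.5 points and 1 of 4 was large, the L14p/L23e gene Potri.010G066400. The authors' deposited tables gave 17.9 points for an L36e gene (Potri.011G066000), 17.1 points for a translation protein SH3-like gene (Potri.016G061100) and 15.7 points for an L22p/L17e gene (Potri.012G096600).

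The photosynthesis and plastid list held 4 entries of 3 genes with a median of 20.5 points. Beside the photosystem II 5 kD protein gene and TOC64-III it contained PSBR (Potri.011G142300), a subunit of photosystem II, whose CHH gains were 18.9 (KD2) and 31.4 points (KD5) in the authors' deposited table. The cell wall list held CESA7, CSLD3 and laccase 6 (LAC6, Potri.014G100600), of a family that polymerises lignin, in 5 entries with a median of 18.7 points. LAC6 had 18.003 points in KD2 beside 35.4 points in KD5 in the authors' deposited table. The transport list held 6 entries of 4 genes with a median of 16.1 points, and TIP1;3 in CHH was its only large entry. UCP5 (Potri.017G047800), a mitochondrial carrier, had 16.3 points in KD2 beside 44.1 points in KD5 in the authors' deposited table.

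The transcription factor list held 5 entries of 4 genes with a median of 19.0 points. Its large entry was the RING/FYVE/PHD gene Potri.005G173200, which the words "zinc finger" brought in and which is not known here to be a transcription factor. BZIP61, RL6, a RAD-like MYB gene (Potri.002G035000, 19.0 points) and a gene with BED zinc finger and hAT dimerisation domains (Potri.017G021800, 19.0 points) made up the rest in the authors' deposited tables. The redox and metabolism list held 10 entries of 8 genes with a median of 19.0 points and 2 large ones, UGT85A2 and CESA7. Its next member was a GTP cyclohydrolase II gene, for riboflavin synthesis (Potri.001G234900, 23.5 points in the authors' deposited table). The lists for chromatin, kinases and phosphatases, defence and lectin, and transposon-derived domains held 1 gene each, and the hormone list none. The chromatin gene was DDM1 (Potri.T120000), a remodeller that maintains DNA methylation in Arabidopsis, with a CHH gain of 17.7 points in KD2 in the authors' deposited table, from a window whose gene is uncertain because the identifier names no chromosome. The 50 entries in no list had a median of 20 points, and 14 were large.

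Size of gain and expression were set side by side over promoters, which is a description within 1 pair of libraries. In CG the 32 promoters of genes with a negative logFC had a median KD2 gain of 19.8 points, and the 17 with a positive logFC 17.5 points. In CG, 11 of the 32 (34.4%, exact interval 18.6 to 53.2%) and 2 of the 17 (11.8%, 1.46 to 36.4%) were large. The shares of large gains ran the other way in CHG, at 4 of 18 (22.2%) with a negative and 3 of 12 (25%) with a positive logFC, and in CHH, at 2 of 14 (14.3%) and 2 of 7 (28.6%). In CHG the medians ran the other way too, 18.5 points over 18 promoters with a negative and 19.4 points over 12 with a positive logFC, and so they did in CHH, with 19.6 points over 14 and 22.1 points over 7. The 3 gains above 40 points were all listed for genes with a negative logFC, as were 64 of all 100 entries. In the authors' deposited tables it was -0.69 for Potri.001G149800, -0.73 for Potri.010G062600 and -0.65 for CNX1. The window of Potri.010G062600 is not on the chromosome of the identifier, so its gain may belong to another gene than this logFC. These 3 logFC values are close to the smallest absolute value of the 83 genes, 0.63, and the median absolute logFC was 1.04.

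Promoters of strongly and weakly expressed genes had similar median gains in KD2. With the genes split at the median logCPM of 4.65, the median KD2 gain was 19.2 points above and 19.4 points at or below it in CG, 19.99 points above and 18.4 points at or below it in CHG, and 19.1 points above and 20.2 points at or below it in CHH. The shares of large gains above and at or below it were 6 of 24 (25%) and 7 of 25 (28%) in CG. In CHG they were less alike, at 5 of 14 (35.7%) and 2 of 16 (12.5%). In CHH they were 2 of 11 (18.2%) and 2 of 10 (20%). Across promoters, Spearman's rho between gain and logCPM was 0.09 in CG (n = 49), 0.21 in CHG (n = 30) and 0.05 in CHH (n = 21), with Pearson's r of 0.11, 0.27 and 0.32. Without CNX1 the CHH Pearson's r was -0.13 (n = 20). The points of a context share both libraries. At the ends of the range the spread was unlike. The 6 genes with the highest logCPM, from 7.92 to 10.01, had gains from 15.2 to 80 points with a median of 17.1 points. They are the ribosomal gene Potri.010G066400, CNX1, PDF1, the SH3-like gene Potri.016G061100, UBQ6 and the ribosomal gene Potri.012G096600. The 6 genes with the lowest logCPM, from 0.33 to 1.39, had gains from 16.3 to 19.96 points with a median of 18 points. They are Potri.017G047500, Potri.005G221800, the RNA polymerase family gene Potri.017G063100, Potri.017G021800, RL6 and UCP5. The windows of Potri.005G221800 (chromosome 2) and Potri.017G063100 (chromosome 1) are not on the chromosome of the identifier, so their gains may belong to other genes than this logCPM.

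**Figure D4:**
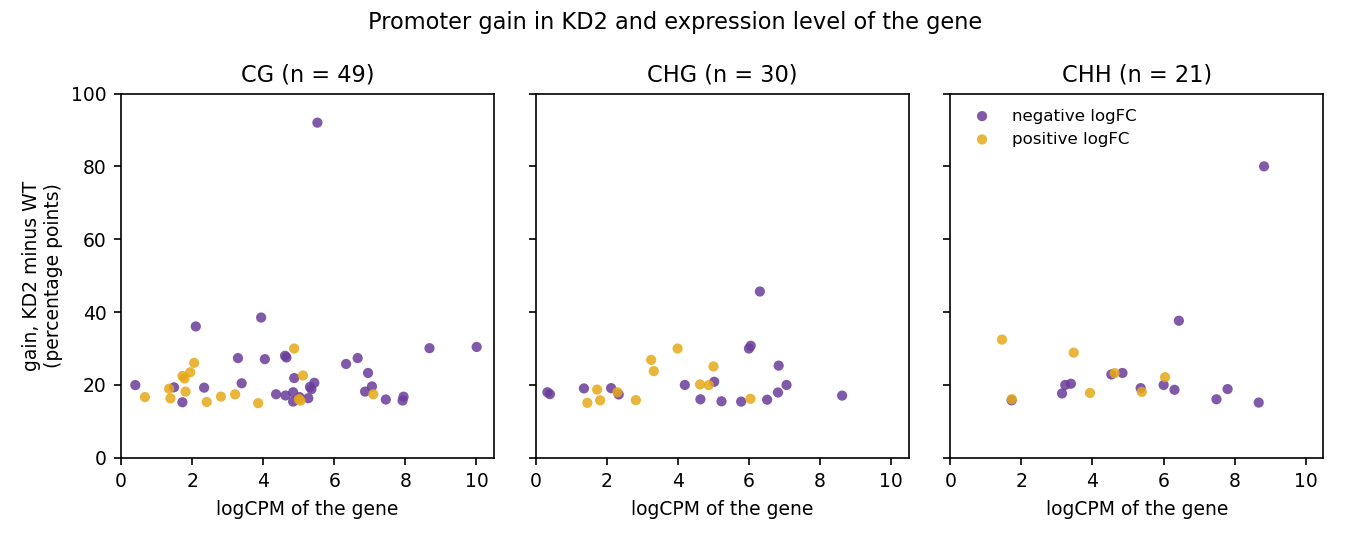
Gain in KD2 over WT, in percentage points, against the logCPM of the gene for each promoter of the CG, CHG and CHH tables, coloured by the sign of the authors' logFC. Gains stay between 16.3 and 19.96 points at the 6 genes of lowest logCPM, and the 3 gains above 40 points are at genes of negative logFC and logCPM above 5.

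The listed windows were checked against gene coordinates where the tables for transcribed regions hold them. Of 30 promoter genes also listed for the transcribed region, 28 had a window on the chromosome of their identifier. In all 28 the window ended on the base next to the start of the gene and lay on the same strand. For the rest of the 30, Potri.017G033400 and Potri.003G068500, the window was on another chromosome than the identifier (chromosomes 7 and 1). Strand and distance to the named gene could therefore not be compared. In all, 87 of the 100 windows were 2000 bases long. The other 13 were from 299 to 1595 bases, and 12 of these, belonging to 10 genes, lay on another chromosome than the identifier or had an identifier without one. These genes are Potri.003G068500, Potri.003G130300, Potri.005G210800, Potri.005G221800, Potri.006G153300, Potri.008G062400, Potri.010G062600, Potri.017G033400, Potri.017G063100 and DDM1 (Potri.T120000), and to which gene each window belongs could not be settled. Those 12 entries had a median KD2 gain of 18.2 points and 4 of 12 were large (33.3%, exact interval 9.92 to 65.1%), beside 19.3 points and 20 of 88 (22.7%) for the rest. Promoters of the 30 genes whose transcribed region was listed too had a median gain of 18.9 points over 40 entries, from 15.0 to 37.6 points, of which 8 were large (20%). The 60 entries of genes listed for the promoter alone had a median of 19.7 points, from 15.1 to 92.0 points, and 16 were large (26.7%). The 3 gains above 40 points were all in this second set.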

How the data were processed

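Buds of KD2, KD5 and WT were pooled per genotype, and 1 bisulfite library of each was sequenced. The submitters' processing notes name Bismark and methylKit; neither their versions nor the filters, coverage or build are given in the sources used here. Coordinates are those of the deposited tables, whose gene models carry a Phytozome tag. The authors deposited methylation differences (unit score, in percentage points) for KD2 and KD5, which carry the values of 100 promoter entries. All 200 of these are below 0, while the titles of the tables speak of hypermethylation in KD2 and KD5, so the sign was turned. The tables give the promoter window and not the region within it. Per the file headers, logFC and logCPM are expression values with a p-value and FDR, and every FDR is below 0.05. The log base is not stated, and log2 for these deposited values is an assumption.

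Values were summarised with Python 3.11.15, pandas 2.3.3, numpy 2.4.6 and scipy 1.17.1, and drawn with matplotlib 3.10.9. Where an interval of a share is given, it is an exact Clopper-Pearson 95% interval. The interval of the median was tested on simulated data, and the merging of windows and the count of large gains on small made-up inputs. No test between genotypes was possible with 1 library each. A gene joined a list by words of its annotation. Members, lists and the size of 25 points were chosen with earlier results of these data known. Named were, per context, the 12 largest and 4 smallest KD2 gains, all genes in 2 or 3 contexts, up to 4 members per list and the 6 genes at each end of logCPM. Other genes were named after their values were seen. Alternatives covered window position and length, merged windows, expression FDR, means, other sizes of a large gain, KD5 gain, absolute logFC, logCPM terciles and list membership.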

Additional observations from a re-analysis of the deposited data

How the results depend on the processing

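Of 83 recomputed values that answer a comparison, 68 stayed within the 95% binomial interval of the median or within 1.5 times the count, and of 39 medians of gene lists all 39 did. For lists of 4 to 8 entries that interval is the full range of the list, so their medians could not leave it. The same held for the 7 CHH promoters with a positive logFC, whose interval was their full range, 16.1 to 32.4 points. Their recomputed values are among the 68. Limiting the entries to windows on the chromosome of the identifier or to windows of 2000 bases moved none of the values. No windows of 1 table overlapped, so merging left all 100. The 13 values and 8 list medians recomputed after merging therefore could not change. Means were above the upper limit of the median's interval in 5 cases: CG 22.6, CHG 20.9 and CHH 24.01 points, and for negative logFC CHG 21.2 and CHH 24.7 points. The number of large gains in CG, CHG and CHH was 21, 12 and 11 at 20 points, and at 30 points 6 in CG and 4 in CHG. At an expression FDR below 0.005, it was 6 of 16 in CG, 2 of 7 in CHG and 0 of 5 in CHH, counts that fell with the number of promoters. The median for CHG with a positive logFC was then 26.0 points over 2 promoters, and 1 list in place of 2 had a median above that of all promoters. No paired analysis was possible because each genotype has 1 library. Depth per promoter is unknown, so the precision of a gain cannot be stated, and leaving out a library was not possible.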

Other observations

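Several listed promoters belong to genes of the secretory and endomembrane system. A set of 8 of the 83 genes was put together after the values were seen, and is therefore given without a test or interval. It held 10 entries with gains from 16.0 to 80 points and a median of 21.7 points, of which 3 were large (30%). Over all 100 entries the median was 19.2 points and 24% were large, and the share in the set is near that. In KD5 the same entries had a median of 17.7 points, beside 23.9 points over all 100 entries. The set leaves out the vacuolar genes VHA-C2 (37.6 points in CHH) and TIP1;3 (15.1 points in CHG, 32.4 points in CHH), so its values depend on the choice of members. The set comprises calnexin 1, the Rab5-interacting gene Potri.008G102200, the reticulon gene Potri.008G004200, the Got1/Sft2-like gene Potri.015G017300, the HRF1 family gene Potri.007G129900, VPS60.1, the membrane protein gene TMN7 (Potri.003G038700) and a secE/sec61-gamma gene (Potri.001G329400) of the translocon. In the authors' deposited table TMN7 had CG gains of 17.5 (KD2) and 24.1 points (KD5).

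Listed windows lay within 100000 bases of each other in 4 pairs of genes. The lectin gene Potri.001G391200 (36.1 points in KD2) and Potri.001G391100, an oxidoreductase gene (CG, 19.4 points in KD2 and 60.0 points in KD5) are separated by 18917 bases on chromosome 1, and both had a negative logFC in the authors' deposited table. Potri.017G047500 (18 points in CHG) and UCP5 (16.3 points in CG) are 34379 bases apart on chromosome 17, with logFC values of -3.11 and 4.24 in the authors' deposited tables. The window listed for Potri.003G068500 on chromosome 1 is 53559 bases from that of CSLD3, and those of VHA-C2 and Potri.005G236600 on chromosome 5 are 89143 bases apart. Windows of 24 of the 83 genes lay on chromosome 1 (28.9%), among them 6 of the 10 genes whose window is not on the chromosome of the identifier. Without those 10 genes it was 18 of 73 (24.7%). Of the 524 genes listed for the transcribed region, 71 lay on chromosome 1 (13.5%). The share of chromosome 1 among all genes is not analysed here, and the difference was not tested.

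At 2 promoters the KD2 and KD5 gains were equal to within 1e-06 points, 16.0 points at the sec61-gamma gene and 16.4 points at the nuclear factor Y subunit gene NF-YB13 (Potri.015G052800), both in CG in the authors' deposited table. Of the 100 KD2 gains, 12 were whole numbers to that tolerance, among them 92 and 80 points, and of the 13 gains of 30 points or more 5 were.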
